A study of Mus musculus with 33 samples.

Results

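The genes described here are 53 genes of mitosis, chosen by symbol from a fixed list of cyclins, mitotic kinases, spindle checkpoint proteins, kinesins, kinetochore proteins and condensins. All 53 were found among the 55487 genes of the deposited count table. All of them passed the filter on low counts (36527 genes tested), and each held reads in every one of the 33 libraries, with 38 reads as the lowest count.

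The libraries came from sorted GFP+ mammary epithelial cells of FVB mice, 1 library per mouse. All mice carried MMTV-Cre, whose promoter is active in the mammary epithelium, and the mTmG reporter, which Cre switches from red to green. PTHrP WT mice were Pthrp wt/wt and PTHrP KO mice Pthrp flox/flox, so that Cre removed part of the gene for parathyroid hormone-related protein in these cells. Tumor mice also carried MMTV-PyMT, an oncogene that drives mammary tumors through hyperplasia, adenoma and carcinoma, and tumor-free mice did not. There were 3 WT tumors per week at weeks 6, 8 and 10 and 1 at week 12, and 3 KO tumors per week at weeks 8, 10 and 12. Each of these ages had 2 glands of tumor-free mice of the same genotype. Hyperplasia was reached at week 6 in WT and week 8 in KO tumors, adenoma at weeks 8 and 10 and carcinoma at weeks 10 and 12. Dissociated cells were held in serum-containing medium for 48 h before the sort, so the levels below are those of cells after a short culture.

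Mitosis is driven by cyclin B bound to the kinase Cdk1, which is held back until the CDC25 phosphatases activate it. The spindle checkpoint (Bub1, Bub1b, Bub3, Mad2l1 and Ttk) holds the cell in metaphase until every kinetochore is attached, by keeping Cdc20 from switching on the anaphase-promoting complex. Most of these genes are transcribed mainly in G2 and M phase, when the MuvB complex recruits the factors Mybl2 and Foxm1 to their promoters, and their RNA is scarce in resting epithelium. In a bulk library, fewer dividing cells and less RNA per dividing cell cannot be told apart.

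Promoters are shown because the members moved together and because promoters of G2 and M phase genes are known for a pair of motifs. These are the CHR (cell cycle genes homology region, TTTGAA, bound by MuvB) and the CCAAT box (bound by NF-Y). Windows from RefSeq (GRCm38.p6), running from 250 bases before the start of transcription to 50 after it, were held for 43 members in 46 windows. No window was held for Smc4, Foxm1, Ccna2, Spc24, Aurkb, Incenp, Kif20a, Tpx2, Dlgap5 and Cdc25c. Both motifs were searched as exact letters on either strand, and overlapping matches were counted (the last letter of the box can be the first of the CHR). The CHR was in 35 of the 46 windows (76.1%), against 17.9% of 32851 promoter windows of the same length. The CCAAT box was in 35 of the 46 (76.1%) against 37.4%, and 22 held it more than once (47.8% against 11.7%). Both motifs stood in 31 windows (67.4%) against 6.95% of all promoters. Of the 44 matches to the CHR, 32 lay within 60 bases of the start, and 47 of the 76 matches to the box lay 20 to 120 bases before it. Bub3, Ect2 and Prc1 had overlapping windows, so sites that these share were counted more than once, in the shares of windows too. The 32851 windows of all promoters belonged to 27025 genes. A match is a description of letters and does not show that a factor is bound.

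The windows below run 5′ to 3′ along the gene's own strand, and capitals mark each match to either motif or its reverse complement. Ccnb2, Cdk1, Cdc20, Hmmr, Top2a and Mki67 hold both motifs and rose at the first stage of WT tumors. Bub3 holds both motifs as well, and its level hardly varied. Nusap1, among the members with the largest changes, and Mybl2, whose level against the other members differed most between tumors and glands, hold neither in this window.
Ccnb2, chr9:70421505-70421804, minus strand: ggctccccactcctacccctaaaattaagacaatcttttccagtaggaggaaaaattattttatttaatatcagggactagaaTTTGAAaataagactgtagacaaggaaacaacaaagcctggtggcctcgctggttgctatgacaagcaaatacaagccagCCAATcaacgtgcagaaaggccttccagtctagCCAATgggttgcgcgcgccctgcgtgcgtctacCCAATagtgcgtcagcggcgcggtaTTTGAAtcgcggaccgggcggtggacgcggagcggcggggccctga
Cdk1, chr10:69352863-69353162, minus strand: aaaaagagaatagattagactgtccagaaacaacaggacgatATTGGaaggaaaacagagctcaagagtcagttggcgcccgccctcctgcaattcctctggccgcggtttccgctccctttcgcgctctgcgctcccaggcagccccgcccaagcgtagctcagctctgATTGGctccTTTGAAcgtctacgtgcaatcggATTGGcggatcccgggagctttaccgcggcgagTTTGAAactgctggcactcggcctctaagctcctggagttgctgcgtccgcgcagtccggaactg
Cdc20, chr4:118437294-118437593, minus strand: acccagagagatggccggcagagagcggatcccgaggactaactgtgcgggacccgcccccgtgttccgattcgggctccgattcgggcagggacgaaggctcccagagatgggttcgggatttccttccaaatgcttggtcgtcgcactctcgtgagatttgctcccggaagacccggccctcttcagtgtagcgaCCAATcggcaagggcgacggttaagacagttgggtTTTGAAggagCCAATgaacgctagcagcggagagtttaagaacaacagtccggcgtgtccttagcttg
Hmmr, chr11:40733388-40733687, minus strand: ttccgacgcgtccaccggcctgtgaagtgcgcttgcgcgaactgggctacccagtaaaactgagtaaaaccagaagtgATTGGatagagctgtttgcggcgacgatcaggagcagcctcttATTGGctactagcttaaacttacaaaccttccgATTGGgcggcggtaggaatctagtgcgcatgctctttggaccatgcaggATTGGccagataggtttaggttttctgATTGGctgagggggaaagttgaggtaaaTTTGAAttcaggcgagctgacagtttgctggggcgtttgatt
Top2a, chr11:99024140-99024439, minus strand: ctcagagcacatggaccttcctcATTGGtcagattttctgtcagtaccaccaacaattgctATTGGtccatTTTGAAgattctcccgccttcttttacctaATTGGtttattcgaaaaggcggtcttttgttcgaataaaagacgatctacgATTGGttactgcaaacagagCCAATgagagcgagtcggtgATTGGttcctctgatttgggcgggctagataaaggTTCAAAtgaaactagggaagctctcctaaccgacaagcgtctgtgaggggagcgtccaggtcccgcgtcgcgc
Mki67, chr7:135716330-135716629, minus strand: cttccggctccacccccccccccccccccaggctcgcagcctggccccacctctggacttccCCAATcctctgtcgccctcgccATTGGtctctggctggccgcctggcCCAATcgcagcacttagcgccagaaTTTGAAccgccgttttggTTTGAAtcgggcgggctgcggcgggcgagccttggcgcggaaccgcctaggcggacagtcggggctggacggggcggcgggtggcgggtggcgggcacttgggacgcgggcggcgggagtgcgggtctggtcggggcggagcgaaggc
Bub3, chr7:131560120-131560419, plus strand: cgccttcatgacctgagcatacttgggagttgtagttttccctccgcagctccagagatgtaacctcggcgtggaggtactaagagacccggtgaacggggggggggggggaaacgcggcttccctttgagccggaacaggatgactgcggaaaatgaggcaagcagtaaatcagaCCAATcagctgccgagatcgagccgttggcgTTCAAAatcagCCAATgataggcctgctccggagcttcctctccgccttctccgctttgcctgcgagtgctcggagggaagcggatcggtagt
Nusap1, chr2:119618048-119618347, plus strand: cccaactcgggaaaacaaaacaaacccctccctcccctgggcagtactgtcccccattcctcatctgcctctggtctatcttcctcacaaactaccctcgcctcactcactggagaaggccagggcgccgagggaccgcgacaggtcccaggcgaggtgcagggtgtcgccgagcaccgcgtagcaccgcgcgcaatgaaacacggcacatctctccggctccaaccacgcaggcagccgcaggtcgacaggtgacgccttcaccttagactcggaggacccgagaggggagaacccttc
Mybl2, chr2:163054385-163054684, plus strand: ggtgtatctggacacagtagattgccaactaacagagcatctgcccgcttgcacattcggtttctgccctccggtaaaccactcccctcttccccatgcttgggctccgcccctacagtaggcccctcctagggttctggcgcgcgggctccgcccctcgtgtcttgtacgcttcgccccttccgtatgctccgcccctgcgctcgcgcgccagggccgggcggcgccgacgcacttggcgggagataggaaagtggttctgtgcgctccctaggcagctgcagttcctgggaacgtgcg

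Gene reads per library ranged from 28419983 to 130981596 (median 46351179), and duplicates between libraries of 1 condition were not found. The p-values below measure the spread between mice. Pthlh, the gene for PTHrP, was at 1.46 to 6.67 CPM (the usual measure of a gene's share of all reads, with the library size scaled by TMM) in WT tumors, 1.35 to 2.29 in KO tumors, 2.93 to 7.73 in WT glands and 2.79 to 8.52 in KO glands. Counts per gene include reads outside the deleted part, so this level does not check the deletion. All 10 luminal markers had reads in every library and summed to 4950 to 12700 CPM, from Krt8 (1380 CPM or more) and Epcam (525 CPM or more) to the transcription factors Elf3 (13 to 30.8 CPM) and Elf5 (5.25 to 105 CPM). The summed level of 10 basal or myoepithelial markers was 4680 to 17500 CPM in the 14 glands and 987 to 4810 CPM in the 19 tumors. Summed levels of 10 markers each reached 1.95 to 22 CPM for endothelial cells, 0.0146 to 17.5 CPM for lymphocytes and 13.9 to 840 CPM for fibroblasts, and no list was at 0 throughout. Of the macrophage list (62.8 to 418 CPM) most reads were of Cd14, and Adgre1 was at no more than 3.56 CPM. The adipocyte list summed to 58.3 to 129 CPM, with Adipoq, the adipocyte's hormone, at no more than 0.0962 CPM. The share of reads on rRNA reached 18.8% in 1 KO gland and 12% in 1 KO tumor, but stayed at or below 0.447% in every WT library.

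Per length of exon, the median level over the libraries was highest for Top2a, the topoisomerase that untangles sister chromatids (35 RPKM, which is CPM per kilobase of exon), and for Cdc20, the activator of the anaphase-promoting complex (31.4 RPKM). Ccnb2 (23.8 RPKM), the condensin subunit Smc4 (23.5) and the spindle factor Tpx2 (18.7) came next. The lowest were the kinesin Kif14 (1.63 RPKM), the phosphatase Cdc25c (2.41) and separase, Espl1 (2.42). RPKM here used the union of annotated exons, which may be longer than the transcript in use.

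Between the lowest and the highest library most members varied more than 10-fold. The widest range was that of Plk1, the kinase that drives centrosome maturation and cytokinesis, from 4.06 to 87.8 CPM (21.6-fold). Hmmr, a spindle-assembly factor and hyaluronan receptor, followed at 19.8-fold, then Ube2c, the ubiquitin-conjugating enzyme of the anaphase-promoting complex, at 19.4-fold. Mki67, the classic marker of proliferation, ranged from 27.6 to 526 CPM (19.1-fold). At the other end stood the condensin subunits Ncaph (7.43-fold), Smc4 (6.08-fold) and Smc2 (5.63-fold), and Bub3, with the smallest range of all, 81.5 to 136 CPM (1.66-fold). Bub3 is a checkpoint protein that is also needed outside mitosis.

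The extremes were both in tumor-free mice. The highest level of 50 of the 53 genes was in 1 KO gland of week 12 (mouse 2), and that of the other 3 was in a KO tumor of week 12 (mouse 1). The lowest level of 49 genes was in 1 WT gland of week 10 (mouse 2). As the mean log2 CPM over the 53 genes, WT tumors ran from 4.2 to 5.98 (median 5.59, n = 10), KO tumors from 4.57 to 6.14 (5.37, n = 9), WT glands from 2.9 to 5.75 (4.3, n = 8) and KO glands from 3.81 to 6.52 (5.45, n = 6). The 4 classes of library overlapped.

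**Figure D1:**
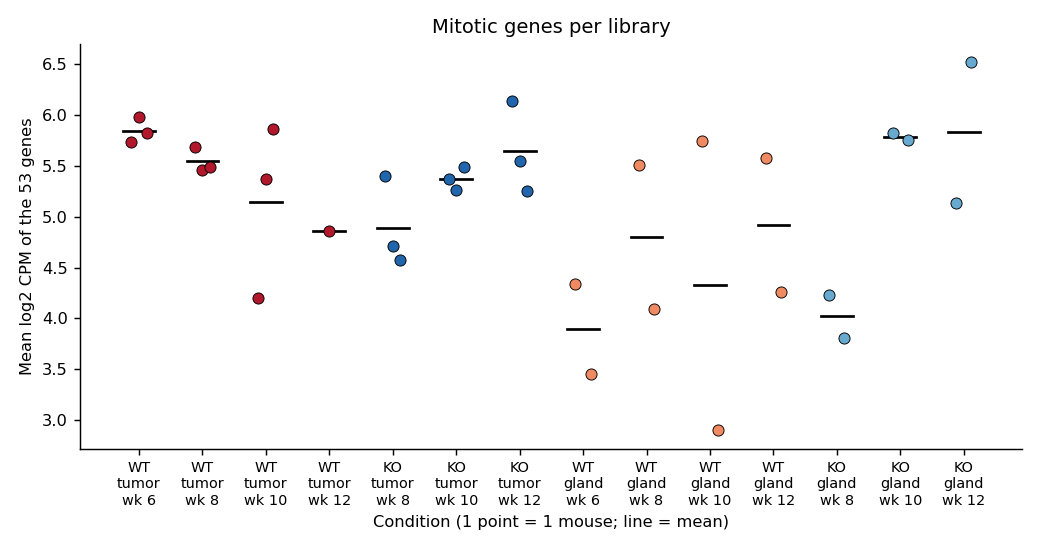
Mean log2 CPM of the 53 mitotic genes (vertical axis) in each of the 33 libraries, by condition, with 1 point per mouse and a line at the mean of the condition. Tumors of WT mice at week 6 lie between 5.74 and 5.98, and the pair of WT glands of week 10 lies at 2.9 and 5.75.

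Mice of 1 condition differed widely, and more so among glands than tumors. In WT glands of week 10, all 53 genes were higher in mouse 1 than in mouse 2, by a median of 7.84-fold (1.41-fold to 12.5-fold). Ccnb1, a cyclin B, was at 92.7 CPM in the first and 8.43 CPM in the second. All 53 genes were also higher in 1 mouse of the pair among WT glands of week 6 (median 1.9-fold), week 8 (2.75-fold) and week 12 (2.62-fold) and KO glands of week 12 (2.55-fold). In the KO glands of week 8, 50 of 53 were higher in mouse 1 (median 1.32-fold). The KO glands of week 10 were close to each other, with 35 genes higher in mouse 1 and a median of 1.05-fold.

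The pooled SD of log2 CPM between mice of 1 condition had a median of 0.761 over the 53 genes (1.082 within gland conditions, 0.482 within tumor conditions). Over the 10238 genes with a mean level at or above that of the lowest member, the median was 0.187 (0.192 in glands, 0.177 in tumors). Over all 36527 genes tested, whatever their level, the median was 0.853 (0.79 in glands, 0.777 in tumors). This is a description without a test. Other values moved with some of these pairs. The WT gland of week 10 with low mitotic genes had 4680 CPM of basal markers and the other had 10200. The KO gland of week 12 with high mitotic genes had 18.8% rRNA and 4980 CPM of basal markers, and the other had 0.0362% and 16700 CPM. The lower WT gland of week 8 had 840 CPM of fibroblast markers and the higher one 55.3. At week 6 the lower WT gland (mouse 2) had 258 CPM of them and the higher one 22.2. The WT glands of week 12 were alike in them (21.4 CPM in the lower and 21.6 in the higher). Their part in the levels of the mitotic genes was not tested.

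**Figure D2:**
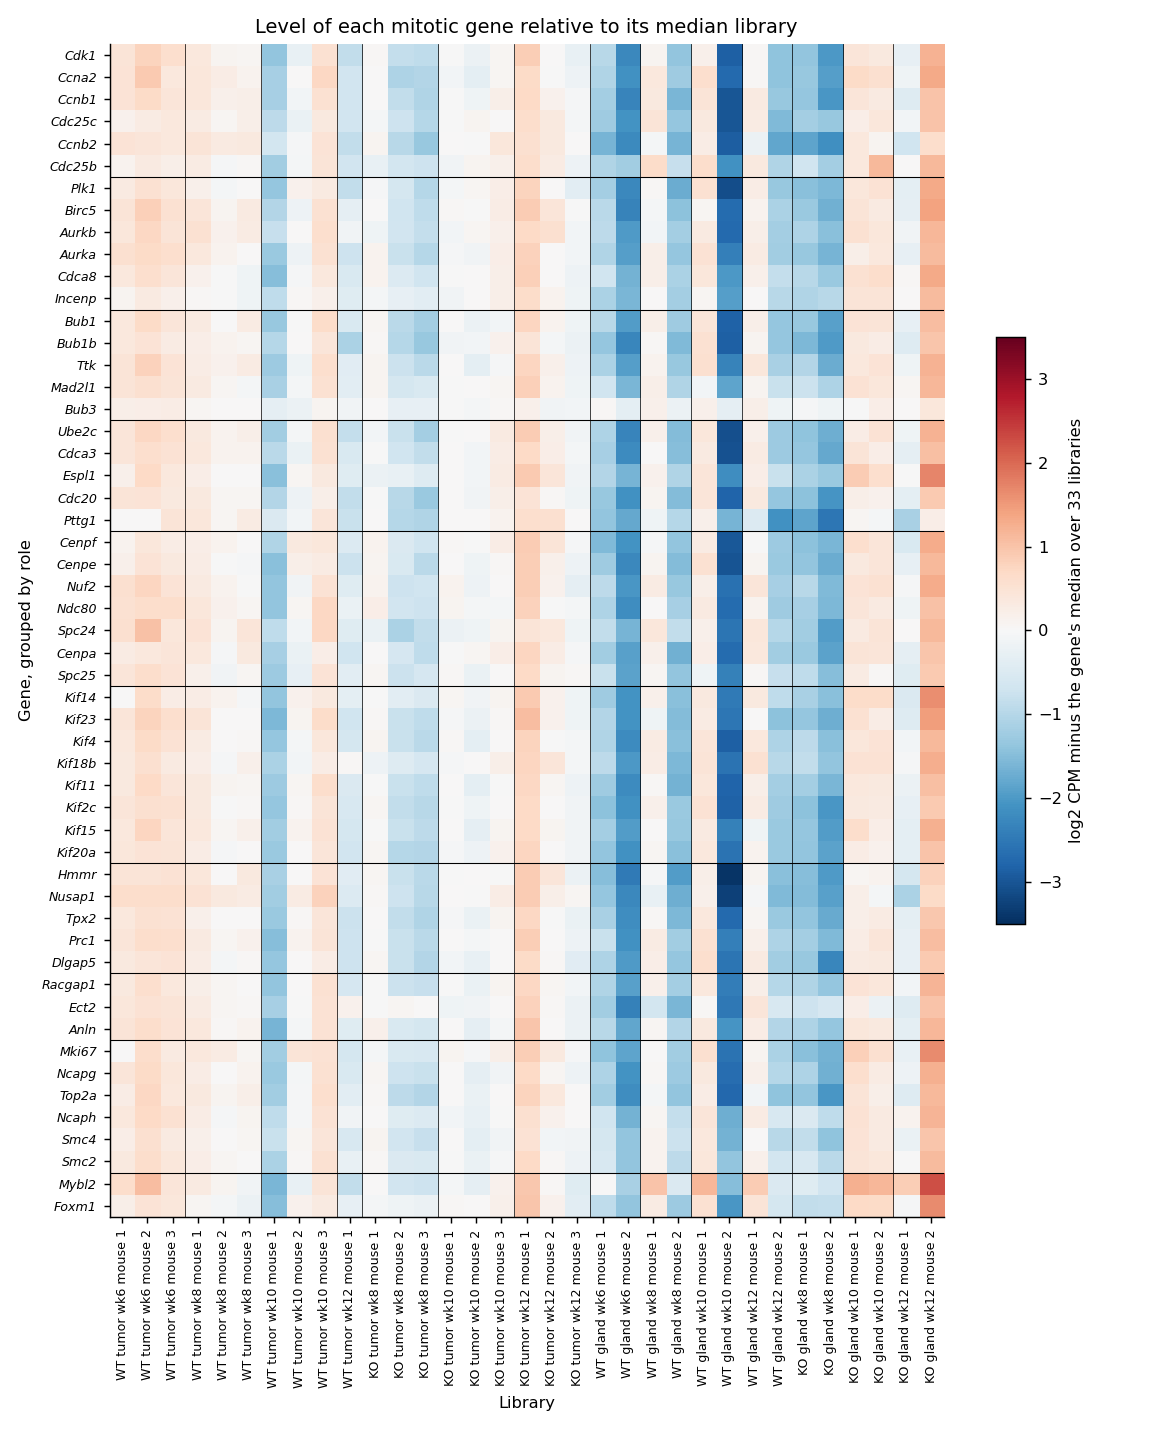
Level of each of the 53 genes (rows, grouped by role) in each library (columns, grouped by condition), as log2 CPM minus the gene's median over the 33 libraries, with red above and blue below that median. Most columns have 1 shade from top to bottom, and the row of Bub3 is nearly white.

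The genes moved as a block. Over the 33 libraries, Pearson's r of log2 CPM between 2 members had a median of 0.965 over the 1378 pairs, and 96.1% of the pairs had r above 0.8. The closest pair was Tpx2 and the kinesin Kif20a (r = 0.996), and the least alike were Mybl2 and securin, Pttg1 (r = 0.551). These points share libraries and their depth, and many share a condition, so r is a description only. Among 10185 other genes of like level or above, those closest to Cdk1 were Tacc3 (r = 0.991), Pbk (0.987), Cep55 (0.987), Pclaf (0.985) and Nek2 (0.985).

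The first comparison asked how tumor cells differ from cells of tumor-free glands of the same age and genotype. At week 6, the hyperplasia of WT mice, 40 of the 53 genes rose in tumors and none fell, against 2.32% of all genes called higher and 5.86% called in either direction in the same comparison. The median fold change was 3.99 (log2 2.00, range 0.38 to 2.38), while the median log2 fold change of all genes tested was 0. All 3 tumors were above both glands for all 53 genes, a pattern that 16.6% of all genes showed. Genes were called with a fold change above 1.5 and a Benjamini-Hochberg adjusted p under 0.1 in edgeR's quasi-likelihood test, and the 40 called genes had adjusted p of 0.0237 and above.

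The call rested on few mice. Leaving out a single library left 21 (without tumor 3), 8 (without tumor 1), 6 (without gland 1), 3 (without tumor 2) or 0 genes called (without gland 2, the lower gland), against 2.06%, 1.37%, 1.33%, 1.16% and 0.427% of all genes called higher in those fits, while the median log2 fold change stayed between 1.58 and 2.51. With the mean of the WT glands of all 4 weeks as control, a choice made after the data were seen, 35 genes were called, against 4.09% of all genes called higher, and the median log2 fold change was 1.14.

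Among the cyclins, Cdk1 and the CDC25 phosphatases, 4 of 6 genes rose. Ccnb2, a cyclin B, was at 50.6, 48.6 and 46.9 CPM in the 3 tumors of week 6 and at 11.9 and 7.84 CPM in the glands. Its tumors lay close together and well above both glands. Ccnb2 rose 4.95-fold (log2 2.31 ± 0.63 SE, adjusted p = 0.0341 in edgeR). Ccnb1 was at 93.7, 107 and 90.8 CPM in tumors and at 29.7 and 13.5 CPM in glands (4.5-fold, adjusted p = 0.0811 in edgeR). Cdk1, their catalytic partner, was at 104, 130 and 113 CPM against 38.8 and 15.9 CPM (4.24-fold, adjusted p = 0.0782 in edgeR). For both genes every tumor was above the higher gland, and the higher gland exceeded the lower by a larger ratio than the highest tumor exceeded the lowest. Ccna2, the cyclin of S and G2 phase, was at 100, 135 and 92.6 CPM against 34.5 and 16.4 CPM (4.29-fold, adjusted p = 0.0824 in edgeR). The study singled out these cyclins and Cdk1 from the same libraries, so their direction is not independent evidence. The phosphatases that activate Cdk1 did not pass. Cdc25c was 3.67-fold higher (adjusted p = 0.10 in edgeR, above the threshold before rounding), and Cdc25b, at 13.8, 15.9 and 14.7 CPM against 6.13 and 5.47 CPM, was 2.55-fold higher (adjusted p = 0.212).

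Among the mitotic kinases and the chromosomal passenger complex, 4 of 6 rose. Aurkb, the kinase of that complex, was at 34.9, 43.2 and 35.8 CPM in tumors and 13.9 and 6.71 CPM in glands (log2 1.88 ± 0.58 SE). Its partners Birc5 (survivin, 4.23-fold) and Incenp (2.89-fold) and the centrosomal kinase Aurka (4.08-fold) rose too. Plk1, at 43.3, 50.5 and 46.5 CPM against 15.3 and 7.31 CPM, was 4.15-fold higher and missed the threshold (adjusted p = 0.109 in edgeR). Cdca8, borealin, missed it as well (2.93-fold, adjusted p = 0.124).

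Of the 5 spindle checkpoint genes, 3 rose, namely Bub1b (4.38-fold), Ttk (4.09-fold) and Mad2l1 (2.98-fold). Bub1 was 3.68-fold higher (adjusted p = 0.123 in edgeR). Bub3 was at 120, 122 and 124 CPM in tumors and 107 and 81.5 CPM in glands, a difference of 1.3-fold (log2 0.38 ± 0.17 SE, adjusted p = 0.263), the smallest of the 53. All 5 genes grouped under ubiquitination and chromatid separation rose. They were Ube2c (4.43-fold) and Cdc20 (4.26-fold) of the anaphase-promoting complex's pathway, Cdca3 (4.27-fold), known as a trigger of mitotic entry, and securin and separase, Pttg1 (3.32-fold) and Espl1 (3.29-fold).

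At the kinetochore, 6 of 7 genes rose, led by Ndc80 (4.32-fold), which binds microtubules, and Cenpf (4.19-fold). The kinetochore motor Cenpe was 3.99-fold higher (adjusted p = 0.103 in edgeR). Of the 8 kinesins 7 rose, and the largest changes were those of Kif2c, which depolymerises microtubules (57.4 ± 2.68 SD, n = 3, against 12.1 ± 3.93 CPM, n = 2, 4.75-fold), Kif20a (4.47-fold) and the spindle motor Kif11 (4.37-fold). Kif18b was 3.4-fold higher (adjusted p = 0.108 in edgeR).

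Of the 5 spindle-associated genes 3 rose, and Hmmr and Nusap1 among them had the largest changes of the 53. Hmmr was at 80, 80 and 83.3 CPM in tumors and at 20.6 and 10.6 CPM in glands (5.2-fold, log2 2.38 ± 0.70 SE, adjusted p = 0.0535 in edgeR). Nusap1, which bundles microtubules around chromatin, was at 57.9, 58.6 and 58.6 CPM in tumors and at 14.9 and 7.98 CPM in glands (5.11-fold, adjusted p = 0.053 in edgeR). The 3 tumors were nearly alike in both genes, and the glands were low and apart from each other. Tpx2 rose 4.09-fold, whereas Dlgap5 (3.66-fold, adjusted p = 0.111) and Prc1 (3.59-fold, adjusted p = 0.11 in edgeR) did not pass.

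All 3 cytokinesis genes rose. They were Ect2, the exchange factor that starts the cleavage furrow (4.38-fold, with the lowest adjusted p of the 53, 0.0237 in edgeR), Racgap1 (3.65-fold) and anillin, Anln (3.62-fold). Of the genes of chromosome structure 5 of 6 rose. Top2a was at 380, 518 and 410 CPM in tumors and 137 and 69.5 CPM in glands (4.21-fold, adjusted p = 0.0629 in edgeR). Mki67 was at 167, 258 and 208 CPM in tumors and 62.9 and 46.8 CPM in glands (3.84-fold, adjusted p = 0.0806 in edgeR). Tumors and glands did not overlap in either gene, and the tumors were more spread out than for Hmmr and Nusap1. The condensin genes Ncapg (4.01-fold), Ncaph (3.12-fold) and Smc2 (2.59-fold) rose, and Smc4 missed the threshold (2.48-fold, adjusted p = 0.111). Neither transcription factor passed. Foxm1 was at 31.1, 37.5 and 35.4 CPM against 14.6 and 10.5 CPM (2.76-fold, adjusted p = 0.18 in edgeR), and Mybl2 at 24.5, 34.3 and 21.5 CPM against 15.8 and 7.33 CPM (2.31-fold, adjusted p = 0.355).

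**Figure D3:**
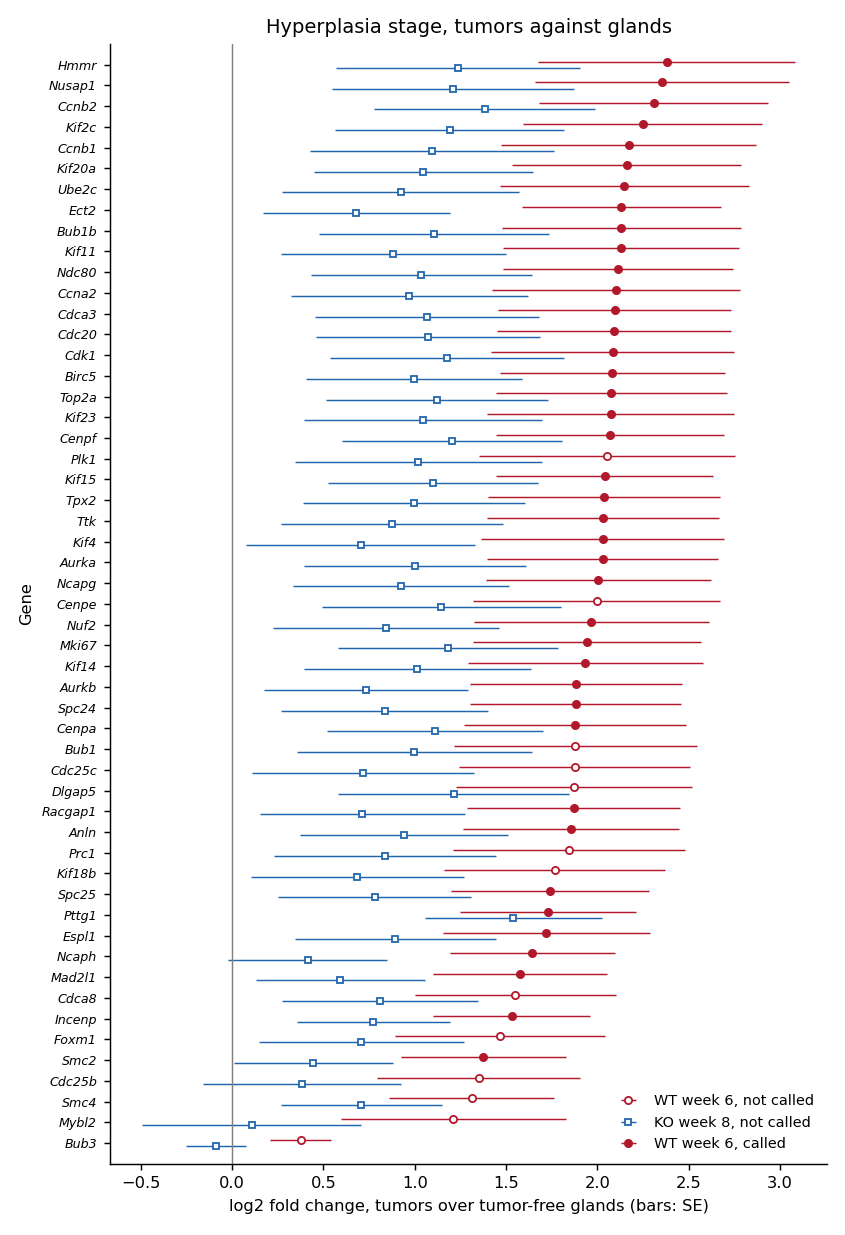
log2 fold change of tumors over tumor-free glands (horizontal axis, bars show SE) for each of the 53 genes, at week 6 in WT mice (circles, filled where called) and week 8 in KO mice (squares, none called in the same edgeR fit). In WT mice, Hmmr is at the top with 2.38 and Bub3 at the bottom with 0.38.

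Other genes of the cell cycle, from lists that share no gene with the 53, moved the same way at week 6 in WT mice. Of 82 other mitotic genes 37 rose and none fell (median log2 fold change 1.18), and the largest changes were those of the kinetochore gene Ska1 (5.39-fold), Depdc1a (5.12-fold), the kinase Pbk (4.81-fold) and the cohesin protector Sgo2a (4.76-fold). Of 32 genes of G1/S and DNA replication 14 rose and none fell (median log2 fold change 1.05), led by the cyclin Ccne2 (3.79-fold), the replication factor Mcm10 (3.62-fold), Tk1 (3.57-fold), which salvages thymidine, and Cdc45 (2.88-fold). At the same week, the summed level of basal markers was 2920 to 3240 CPM in tumors and 7930 to 9540 CPM in glands, with all 10 markers lower in tumors and 7 called lower (median log2 fold change -2.58). Of 10 macrophage markers 4 were higher and 1 was called (median -0.53), although their summed level, mostly Cd14, was 151 to 264 against 66.7 to 82.6 CPM. All 10 fibroblast markers were lower, 1 of them called (median -2.09, summed level 13.9 to 55.3 against 22.2 to 258 CPM). All 10 endothelial markers were lower (median -0.997), 4 of 10 lymphocyte (median -0.19) and 4 of 10 adipocyte markers (-0.71) were higher, and none of these was called. The luminal markers had 1 called higher and 1 lower (median 0.03). The part of these cell types in the result was not tested.

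At later weeks of WT mice edgeR called no member in the fit of all 33 libraries with the same filter and the glands of the same week. At week 8 the median log2 fold change was 0.57 (-0.33 to 1.19), 1 gene (Ect2) had an unadjusted p under 0.05, and DESeq2 called none, against 9.19% of all genes called by edgeR in either direction. All 3 tumors were above both glands for 17 genes, a pattern of 16.2% of all genes. Top2a was at 401, 337 and 366 CPM in the tumors and at 299 and 122 CPM in the glands (log2 0.81 ± 0.60 SE). For Mki67 (log2 0.72 ± 0.59), Cdk1 (0.65 ± 0.62) and Ccnb1 (0.59 ± 0.65), as for Top2a, the SE was close to the difference. The tumors of week 8 lay close together, and 1 of the 2 glands was near them. Without that gland (mouse 1) the median log2 fold change was 1.52, without the other (mouse 2) it was -0.001, and none was called in either fit. Fitted on these 5 libraries alone, 1 gene was called higher, against 6.25% of all genes. No fibroblast (median -3.65, 5 called lower), endothelial (-1.65, 3 called lower) or basal marker (-3.55, 9 called lower) was higher in these tumors, and their part was not tested. With the WT glands of all weeks as control, 7 genes were called, led by Nusap1, Ccnb2 and Hmmr, against 5.36% of all genes called higher.

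At week 10, the carcinoma of WT mice, the median log2 fold change was 0.34 (-0.64 to 0.87). No gene had an unadjusted p under 0.05, DESeq2 called none, and edgeR called 6.13% of all genes. For no member did tumors and glands separate, against 22.5% of all genes with every tumor above or every tumor below both glands. Both groups were split. Ccna2 was at 32.1, 71.4 and 117 CPM in the tumors and at 107 and 10.9 CPM in the glands. The log2 fold changes were 0.51 ± 0.59 (SE) for Top2a, 0.48 ± 0.62 for Cdk1, 0.40 ± 0.58 for Mki67 and 0.34 ± 0.65 for Ccnb1. Without the higher gland (mouse 1) 37 genes were called higher, against 1.36% of all genes in that fit, and the median log2 fold change was 2.52. Without the lower gland (mouse 2) none was called and the median was -0.45, and without tumor 3 the median was -0.048. No basal (median -2.29, 6 called lower) or endothelial marker (-1.71, none called) and 1 of 10 lymphocyte markers (-0.82, none called) was higher in these tumors, and their part was not tested. With the glands of all weeks, 1 gene was called (Pttg1), against 5.27% of all genes called higher.

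In KO mice edgeR called no member at any week in the fit of all 33 libraries with the filter on low counts and the glands of the same week, and the direction of the difference changed between weeks. At week 8, the hyperplasia of KO mice, the median log2 fold change was 0.97 (-0.09 to 1.54), 2 genes (Pttg1 and Ccnb2) had an unadjusted p under 0.05, and DESeq2 called 1, against 2.49% of all genes called by edgeR. All 3 tumors were above both glands for 49 genes, a pattern of 13.9% of all genes. Ccnb2 was at 39, 18.5 and 14.6 CPM in tumors and 10.1 and 8.32 CPM in glands (log2 1.38 ± 0.61 SE, adjusted p = 0.377 in edgeR). Pttg1 had the largest difference (log2 1.54 ± 0.48, adjusted p = 0.123). The log2 fold changes of Mki67 (1.18 ± 0.60), Cdk1 (1.18 ± 0.64), Top2a (1.12 ± 0.61) and Ccnb1 (1.09 ± 0.67) were close to each other. Tumor 1 was well above the other 2 tumors in the cyclins, and both glands were low. Without tumor 1 the median was 0.59. Fitted on these 5 libraries alone, 7 genes were called higher, against 2.6% of all genes, and with no filter on low counts 2 were, against 1.43%. In the same comparison all 10 macrophage markers (median log2 fold change 1.20) and 9 of 10 fibroblast markers (0.89) were higher with none called, and no basal marker was higher (median -2.26, 2 called lower). Their summed levels were 199 to 262 CPM in tumors against 108 and 153 CPM in glands for macrophages, 19.1 to 54.5 against 21.2 and 22.7 CPM for fibroblasts and 1470 to 4810 against 7790 and 10400 CPM for basal cells. Their part in the result was not tested.

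At week 10 the KO glands were as high as or higher than the tumors. The median log2 fold change was -0.42 (-1.27 to 0.04), and all 3 tumors were below both glands for 43 genes, a pattern of 18.4% of all genes. For no member were all 3 tumors above both glands. Mki67 was at 178, 162 and 194 CPM in tumors and 296 and 247 CPM in glands (log2 -0.61 ± 0.57 SE). Differences were smaller for Cdk1 (-0.44 ± 0.61), Top2a (-0.39 ± 0.58) and Ccnb1 (-0.34 ± 0.64). Here 1 gene (Mybl2) had an unadjusted p under 0.05, neither edgeR nor DESeq2 called a member, and edgeR called 5.66% of all genes. Fitted on these libraries alone, 8 genes were called lower, against 7.48% of all genes. No lymphocyte (median -2.70, 4 called lower), endothelial (-1.90, 1 called lower) or basal marker (-2.76, 6 called lower) was higher in these tumors. The summed lymphocyte level was 17.5 CPM in gland 2 and 0.239 CPM in gland 1, against 0.721, 0.666 and 0.115 CPM in the tumors. The lymphocyte difference thus rested on 1 gland. The part of these markers was not tested.

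At week 12, the carcinoma of KO mice, the median log2 fold change was -0.30 (-1.42 to 0.71). No member separated the groups, against 34.1% of all genes with every tumor above or every tumor below both glands. Cdk1 was at 138, 75.7 and 63.6 CPM in tumors and at 62.1 and 177 CPM in glands (log2 -0.37 ± 0.61 SE). The differences of Mki67 (-0.56 ± 0.57), Ccnb1 (-0.14 ± 0.64) and Top2a (-0.13 ± 0.58) were no larger than their SE. Without the higher gland (mouse 2) the median was 0.59, and without the lower gland (mouse 1) it was -0.82. There was 1 gene (Mybl2) with an unadjusted p under 0.05, DESeq2 called 1 gene lower, and edgeR called 6.11% of all genes but no member. Without tumor 1, edgeR called 1 gene lower, against 3.45% of all genes in that fit. No basal marker was higher in these tumors (median -3.34, 8 called lower), while 6 of 10 lymphocyte markers (2.68, none called) and 7 of 10 adipocyte markers (0.77, 2 called) were. Lymphocyte markers summed to 0.0146, 0.253 and 0.555 CPM in the tumors and 0.194 and 0.0492 CPM in the glands, so their median rests on very few reads. The part of these markers was not tested. In the KO comparisons the rRNA share differed between libraries (15.7% in 1 gland of week 8, 8.04% and 4.35% in the glands of week 10), and with that share as a covariate edgeR called no member either. With the KO glands of all weeks as control, the median log2 fold change was -0.34 at week 8, 0.10 at week 10 and 0.44 at week 12, so the direction turned at each week. At week 12 this called 1 gene higher (Pttg1), against 4.3% of all genes.

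The next question was whether PTHrP WT and KO tumors differ at like stages. At hyperplasia (WT week 6 against KO week 8) all 53 genes were higher in WT tumors, with a median log2 fold change of 0.95 (0.41 to 1.37), while the median of all genes was -0.09. None was called by edgeR, which called 1.53% of all genes. Unadjusted p was under 0.05 for 9 genes, DESeq2 called 1 gene, and without KO tumor 1 edgeR called 1 (against 2.31% of all genes higher in that fit). With no filter on low counts edgeR called 6, against 0.962% of all genes. Spc24, a subunit of the Ndc80 complex, had the largest difference, with 10.5, 14.4 and 9.24 CPM in WT and 5.98, 3.3 and 3.86 CPM in KO tumors (log2 1.37 ± 0.49 SE, adjusted p = 0.178 in edgeR). Ccna2, at 100, 135 and 92.6 CPM against 71.2, 33.7 and 34.8 CPM, came next (log2 1.23 ± 0.57, adjusted p = 0.324). In both genes every WT tumor was above every KO tumor, and KO tumor 1 was nearest to the WT tumors. The log2 fold changes of Cdk1 (1.10 ± 0.55), Ccnb1 (1.09 ± 0.58), Top2a (1.01 ± 0.53) and Mki67 (0.70 ± 0.52) had adjusted p of 0.372 to 0.572 in edgeR. The spread of all 33 libraries, the widely varying glands included, enters this test. Fitted on the 6 tumors alone, 44 genes were called higher in WT tumors, against 2.73% of all genes in that fit. Of the fibroblast (median -0.29) and adipocyte markers (-0.63) 1 of 10 each was higher in WT tumors, and of the basal (-0.53) and macrophage markers (-0.33) 2 of 10 each, with none called. The KO tumors 2 and 3, low in mitotic genes, had 12% and 3.62% rRNA, and KO tumor 1 had 0.00572% and the most basal markers of all tumors (4810 CPM). The part of these in the result was not tested beyond the rRNA share as a covariate, which called no member. Age and genotype cannot be told apart in this comparison.

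The genotypes' tumor effects at hyperplasia (tumors minus glands) were then compared, and their difference, WT minus KO, had a median log2 value of 1.03 (0.19 to 1.45). It was 0.61 without WT gland 2 of week 6 and 1.55 without gland 1. No member had an unadjusted p under 0.05, the lowest adjusted p was 0.785 in edgeR, DESeq2 called none, and edgeR called 0 of all genes. For Ccnb1 the difference was 1.08 ± 0.91 (SE), for Top2a 0.95 ± 0.83, for Cdk1 0.91 ± 0.87 and for Mki67 0.76 ± 0.82. For the same difference no fibroblast marker (median -3.09) and 2 of 10 macrophage markers (-2.71) were above 0, with none called, and their part was not tested. Calls in WT mice and none in KO mice are therefore not shown to be a difference between them.

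At adenoma (WT week 8 against KO week 10) the genotypes were close, with a median log2 fold change of 0.18 (-0.14 to 0.43), or 0.10 without WT tumor 1. Mki67 was at 215, 203 and 174 CPM in WT and 178, 162 and 194 CPM in KO tumors, so the groups overlapped (log2 0.15 ± 0.52 SE). Of the macrophage markers 9 of 10 were higher in WT tumors (median 0.89), and of the basal (-0.51), endothelial (-0.89) and lymphocyte markers (-0.75) 1 of 10 each, with none called, and their part was not tested. Top2a (0.28 ± 0.52), Ccnb1 (0.23 ± 0.57) and Cdk1 (0.22 ± 0.55) differed by less than their SE. At carcinoma (WT week 10 against KO week 12) all 53 genes were lower in WT tumors, with a median of -0.40 (-0.65 to -0.12). Cdk1 was at 28.9, 62.8 and 109 CPM in WT and 138, 75.7 and 63.6 CPM in KO tumors (log2 -0.46 ± 0.55). Top2a (-0.48 ± 0.52), Ccnb1 (-0.38 ± 0.57) and Mki67 (-0.33 ± 0.52) were alike in this. The median was -0.07 without WT tumor 1, -0.80 without WT tumor 3 and -0.08 without KO tumor 1. All 10 fibroblast markers were higher in WT tumors of this stage (median 1.16, none called), and their part was not tested. At neither stage did a member have an unadjusted p under 0.05 or a call by edgeR or DESeq2, and edgeR called 0.00821% and 0.0192% of all genes.

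At equal age the median log2 fold change of WT over KO tumors was 0.63 (0.08 to 1.04) at week 8, or 0.98 without KO tumor 1, and -0.08 (-0.38 to 0.16) at week 10, where it was 0.25 without WT tumor 1. Neither week had a member called by edgeR or DESeq2, with 2 genes and none at an unadjusted p under 0.05, against 0.118% and 0.0192% of all genes called by edgeR. At week 8 the log2 values were 0.82 ± 0.58 (SE) for Ccnb1, 0.77 ± 0.52 for Top2a, 0.67 ± 0.55 for Cdk1 and 0.61 ± 0.52 for Mki67. At week 10 they were -0.13 ± 0.55 for Cdk1, -0.10 ± 0.57 for Ccnb1, 0.01 ± 0.52 for Top2a and 0.01 ± 0.52 for Mki67. At week 8, 3 of 10 basal (median -0.98) and 2 of 10 adipocyte markers (-0.76) were higher in WT tumors. At week 10, 8 of 10 fibroblast (0.625) and 1 of 10 endothelial markers (-0.48) were, and none of these was called. KO tumors 2 and 3 of week 8 had 12% and 3.62% rRNA, and WT tumors of week 8 at most 0.25%. The part of these was not tested beyond the rRNA share as a covariate.

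Over time the WT and KO tumors went opposite ways in their medians, within the spread between mice. From week 6 to week 10 all 53 genes were lower in WT tumors, with a median log2 fold change of -0.57 (-0.98 to -0.18). Cdk1 had -0.79 ± 0.55 (SE), Ccnb1 -0.60 ± 0.57, Top2a -0.52 ± 0.52 and Mki67 -0.24 ± 0.52. Without WT tumor 1 of week 10 the median was -0.22 and the value of Mki67 turned to 0.15, and without tumor 3 the median was -0.96. All 10 fibroblast markers were higher at week 10 (median 1.08, none called). WT tumor 1 of week 10 was far below the others of its week, with 13.7 CPM of Plk1 against 39.3 and 43.4 CPM. That tumor had the lowest summed level of luminal markers of all libraries (4950 CPM) and more of the fibroblast markers than any other tumor (160 CPM), whose part was not tested. The single WT tumor of week 12 had 19.2 CPM of Plk1 and 110 CPM of Mki67. From week 8 to week 12 all 53 genes were higher in KO tumors, with a median log2 fold change of 0.77 (0.17 to 1.00), or 0.47 without KO tumor 1 of week 12. Of the basal markers 1 of 10 (median -0.84) and of the macrophage markers 2 of 10 (-0.82) were higher at week 12, with none called. KO tumors 2 and 3 of week 8 had 12% and 3.62% rRNA, against at most 0.952% at week 12, and with that share as a covariate the median was 0.77 as well. The part of the markers was not tested. Top2a had 0.97 ± 0.53, Ccnb1 0.87 ± 0.58, Mki67 0.80 ± 0.52 and Cdk1 0.78 ± 0.55. Each comparison had 1 gene at an unadjusted p under 0.05 and none called by edgeR or DESeq2, with 0.011% and 0% of all genes called by edgeR.

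Glands of WT and KO mice, averaged over weeks 8, 10 and 12, differed by a median log2 fold change of -0.29 (-0.53 to 0.12), against 0.14 for all genes. The log2 fold changes were -0.44 ± 0.37 (SE) for Mki67, -0.34 ± 0.39 for Cdk1, -0.33 ± 0.37 for Top2a and -0.06 ± 0.41 for Ccnb1. No member was called by edgeR or DESeq2 or had an unadjusted p under 0.05, and edgeR called 0.906% of all genes. Without WT gland 1 of week 10, 7 genes were called lower in WT glands, against 0.526% of all genes in that fit, and the median was -1.002. Without KO gland 2 of week 12, which had 18.8% rRNA, the median was 0.013. The rRNA share was 0.0224% to 18.8% in KO glands and 0.00296% to 0.261% in WT glands. Its part was not tested beyond its use as a covariate. All 10 fibroblast markers (median 1.28, none called) and 8 of 10 macrophage markers (0.91, 1 called) were higher in WT glands. Their summed levels overlapped, at 21.4 to 840 against 16 to 183 CPM for fibroblasts and 62.8 to 172 against 68 to 153 CPM for macrophages, and their part was not tested. WT glands of week 12 were above those of week 6 by a median log2 fold change of 1.12 (0.18 to 1.69), with 7 genes at an unadjusted p under 0.05, none called by edgeR and 1 by DESeq2, against 0.35% of all genes called by edgeR. The log2 fold changes were 1.37 ± 0.72 for Ccnb1, 1.23 ± 0.64 for Mki67, 1.00 ± 0.65 for Top2a and 0.95 ± 0.68 for Cdk1. Without WT gland 1 of week 12 the median was 0.30. No fibroblast (median -3.18) or basal marker (-0.39) and 2 of 10 macrophage markers (-1.06) were higher at week 12, with none called. The summed macrophage level went the other way, at 149 and 172 CPM against 66.7 and 82.6 CPM at week 6. The part of these markers was not tested.

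**Figure D4:**
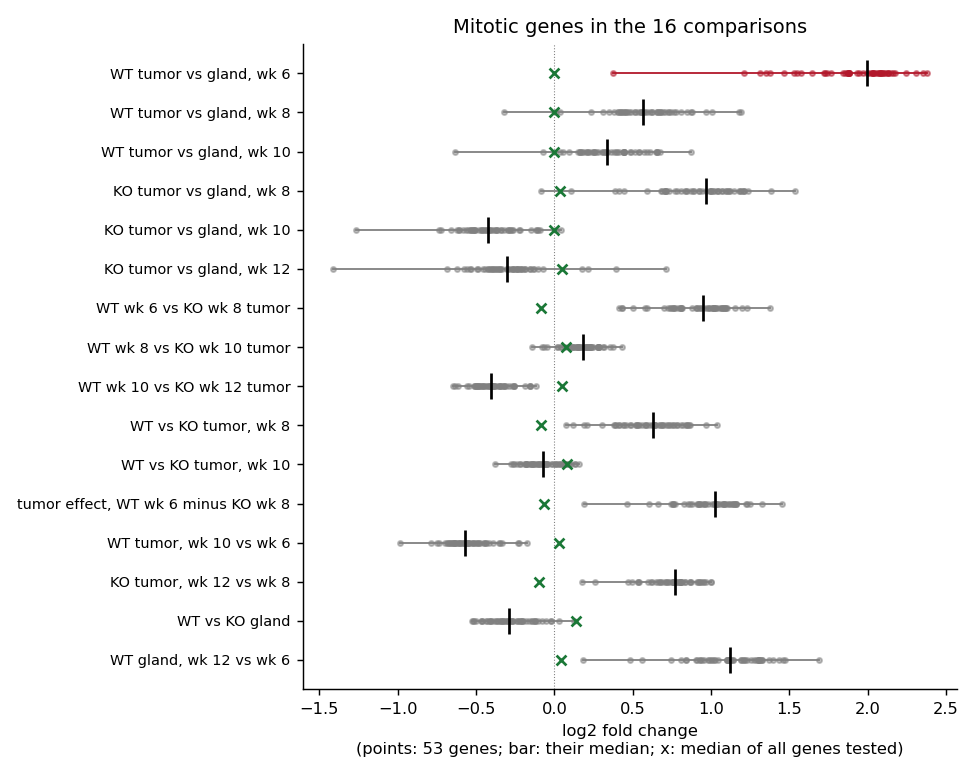
log2 fold changes of the 53 genes (points) in the 16 comparisons, with a bar at their median and a cross at the median of all genes tested. Red marks the comparison with called members, WT tumors against glands at week 6, whose median is 2.00. In KO mice the median is 0.97 at week 8 and -0.42 at week 10.

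Within the block the balance of single genes differed between tumors and glands. Each gene's offset from the mean of the 53 genes in the same library was averaged over the 19 tumors and the 14 glands, as a description without a test. Nusap1 lay higher in tumors by 0.53 log2 units, Ccnb2 and Hmmr by 0.42 and Pttg1 by 0.37. At the other end were Mybl2, lower in tumors by 0.91 (offset -1.42 in tumors and -0.51 in glands), Cdc25b, by 0.37, and Foxm1, by 0.32. The offset of Bub3 differed by 0.60 the same way, but its level hardly varied while the mean of the others did. For Mybl2 the offsets were -1.78 to -0.88 in tumors and -0.74 to -0.27 in glands, so that the classes did not overlap. They did not overlap for Nusap1 either, at -0.29 to 0.19 in tumors and -0.99 to -0.33 in glands. These genes have the largest differences of the 53 in either direction, so their separation is partly a matter of choice. The level of Mybl2 itself was 5.36 to 34.3 CPM in WT tumors and 5.69 to 36.1 CPM in WT glands, and at week 6 it was higher in WT tumors. In KO mice of week 8 it was at 16.1, 10.2 and 9.79 CPM in tumors against 12.1 and 10.2 CPM in glands. In those of week 10 it was at 15.3, 13 and 17.9 CPM in tumors against 37.9 and 36.2 CPM in glands (log2 -1.27 ± 0.58 SE, adjusted p = 0.289 in edgeR). In KO mice of week 12 it was at 30.8, 16.5 and 11.9 CPM against 29.3 and 76.3 CPM (log2 -1.42 ± 0.58, adjusted p = 0.202 in edgeR). Mybl2 is a partner of MuvB in S and G2 phase, and Foxm1 joins later. Smc2 and Ncaph, of the condensins, also lay lower in tumors, by 0.30 and 0.25.

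**Figure D5:**
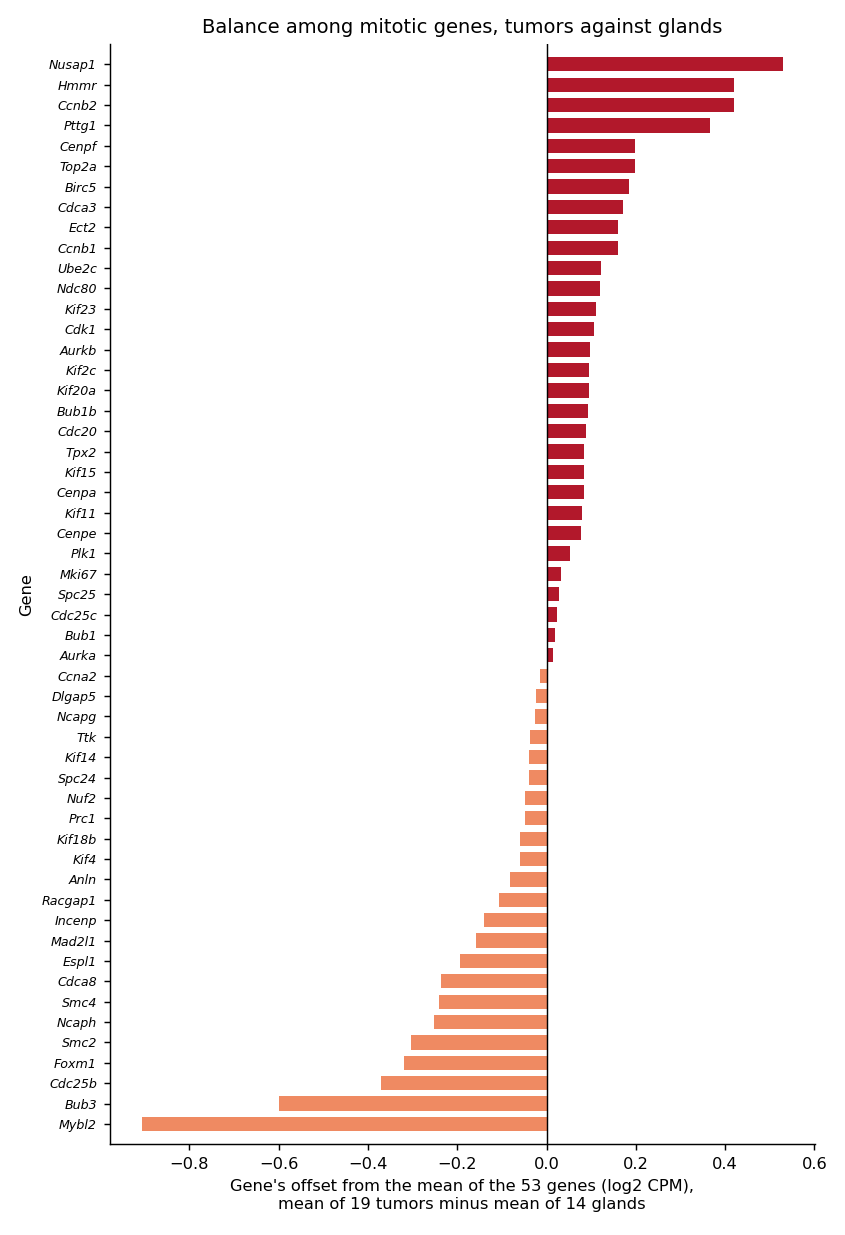
Each gene's offset from the mean log2 CPM of the 53 genes, averaged over 19 tumors minus the same over 14 glands (horizontal axis). Bars to the right mark genes that are high relative to the others in tumors (Nusap1, 0.53) and bars to the left those that are low (Mybl2, -0.91).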

How the data were processed

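RNA was measured in 33 libraries of sorted mammary epithelial cells, grouped by genotype, tissue and week from the labels. The members and lists were chosen with earlier results of these data known. The authors depleted rRNA, made stranded TruSeq libraries, aligned reads with HISAT to Gencode M16 and then GRCm38, used Picard to drop duplicates and HTSeq to count the reads of each gene. Whether the counting used strand is not given in the sources used here, so overlapping genes may share reads. The deposited values used are these raw counts (28419983 to 130981596 gene reads per library). The authors also deposited a table of signal values, which are counts divided by size factors, and 100% of its values came out as whole reads (tolerance 0.01). These recovered reads gave an alternative fit. The 111 rows that name no gene (0.0778% of reads) were left out.

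Genes with at least 10 reads in all were tested with edgeR 4.0.16 (R 4.3.3) by its quasi-likelihood test, with TMM scaling and 1 coefficient per condition over all 33 libraries. A gene was called at a fold change above 1.5 and a Benjamini-Hochberg adjusted p under 0.1 over all genes. The WT tumor of week 12, with 1 mouse, entered no comparison. DESeq2 1.42.0, other filters and scalings, a replicate block, an rRNA covariate and leaving out each library (with the dispersion trend of the full fit) were alternatives. A group left with 1 library was assumed to vary like the others. On data simulated for the comparison at week 6 in WT mice (35027 genes), edgeR recovered 184 of 200 genes changed by 2 on the log2 scale, with 9 false calls, and DESeq2 190 with 42. Each gene was drawn independently of the others, and edgeR was given the dispersion trend of the real fit. The simulation lacked the shared movement of the members between mice, so it does not measure how reliable their calls are.

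Replicate numbers did not pair the mice (mean correlation of deviations 0.045 over 171 pairs of 1 number and -0.025 over 300 of different numbers). Any member may be named. In the comparison with calls, the 10 called members with the largest changes are given, with Mki67, Ccnb1, Cdk1, Top2a and uncalled members of each role. Per-library values follow for a fixed set of genes, and other lists are given by counts with up to 4 genes each. Spc24 was chosen after its values were seen.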

Additional observations from a re-analysis of the deposited data

Results flagged for a closer look

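In KO mice the difference between tumors and glands in the mean log2 CPM of the 53 genes was 0.87 at week 8 and -0.42 at week 10. It stands out because it points opposite ways at these weeks. The difference between the weeks, tested gene by gene in edgeR after the data were seen, had a median log2 value of 1.35 and called no member. Unadjusted p was under 0.05 for 2 genes, among them Mki67 (log2 1.79, adjusted p = 0.931 in edgeR), and edgeR called 0% of all genes. For the same difference all 10 fibroblast markers (median 2.19), 9 of 10 macrophage (2.48), 9 of 10 lymphocyte (3.41) and 8 of 10 endothelial markers (1.63) were above 0. None of these was called, and their part was not tested.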

How the results depend on the processing

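The count of 40 members called at week 6 in WT mice was within 1.5 times of itself under each alternative that kept all libraries (35 with all glands or the rRNA covariate, 41 with DESeq2's size factors, 51 with DESeq2 and 52 with no filter), and ranged from 0 to 21 when 1 library was left out. With the replicate block 47 were called, and the block changed no other call. For these fits at week 6, other than that with all glands, the share of all genes called is not given here. Their counts therefore do not show whether the members or genes in general gained or lost calls. The causes of the changes below were not tested. Elsewhere, against 0 members called in edgeR, DESeq2 called 1 in KO mice at week 8, 1 lower at week 12, 1 between genotypes at hyperplasia and 1 between WT glands of weeks 12 and 6 (against 2.12%, 3.97%, 1.52% and 0.854% of all genes called in the same direction). With no filter on low counts, 1 was called at week 8 in WT mice, 2 at week 8, 1 lower at week 10 and 1 lower at week 12 in KO mice, 6 at hyperplasia and 1 between WT glands (against 2.55%, 1.43%, 3.08%, 2.63%, 0.962% and 0.503%), and filterByExpr called 1 at week 8 in KO mice (2.6%). Fitted on the groups compared alone, 1 was called at week 8 in WT mice, 7 at week 8 and 8 lower at week 10 in KO mice, 44 at hyperplasia and 1 between tumors of week 8 (against 6.25%, 2.6%, 7.48%, 2.73% and 0.907%). With the glands of all weeks, a choice made after the data were seen, 7 were called at week 8 and 1 at week 10 in WT mice and 1 at week 12 in KO mice. Leaving out 1 library gave 0 to 37 at week 10 in WT mice (37 without gland 1, against 1.36%), 0 to 1 at week 12 in KO mice (without tumor 1, 3.45%), 0 to 1 at hyperplasia (without KO tumor 1, 2.31%) and 0 to 7 between WT and KO glands (7 lower without WT gland 1 of week 10, 0.526%).

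Of the log2 fold changes of single genes, 1554 kept direction and side of the threshold, 174 fell below it, 68 rose past it and 44 turned direction. With the glands of all weeks, those in KO mice became -0.41 (Mki67), -0.28 (Ccnb1), -0.28 (Cdk1) and -0.29 (Top2a) at week 8, 0.043, 0.31, 0.16 and 0.20 in the same order at week 10, and 0.38, 0.59, 0.49 and 0.69 at week 12. Between tumors of week 10, removal of the rRNA rows, Gm15564, Lars2 and Mir6236 together gave -0.011 for Mki67 and -0.009 for Top2a, and the rRNA covariate gave -0.037 for Top2a. Without 1 library, the values ranged from -0.076 to 1.86 for Ccnb1 at week 8 in WT mice, and at week 10 from -0.53 to 2.93 for Ccnb1, -0.35 to 2.67 for Cdk1, -0.45 to 2.70 for Mki67 and -0.32 to 2.69 for Top2a. In KO mice at week 12 they ranged from -0.67 to 0.80 for Ccnb1, -0.92 to 0.63 for Cdk1, -1.21 to 0.75 for Mki67 and -0.71 to 0.93 for Top2a. Between genotypes they ranged from -0.59 to 0.046 for Mki67 at carcinoma, and at week 10 from -0.25 to 0.39 for Mki67, -0.55 to 0.24 for Ccnb1, -0.68 to 0.23 for Cdk1 and -0.45 to 0.36 for Top2a. They ranged from -0.49 to 0.15 for Mki67 between WT tumors of weeks 10 and 6, and between WT and KO glands from -0.92 to 0.26 for Ccnb1, -1.20 to 0.002 for Mki67 and -1.05 to 0.031 for Top2a.

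Beside the values given with each comparison, the median of the members moved by over 1.5 times to 0.68 at week 10 in WT mice without tumor 1, to -0.60 without tumor 1 and -0.12 without tumor 3 at week 12 in KO mice, and between tumors of week 10 to -0.45 without WT tumor 3, -0.14 without KO tumor 2 and -0.028 without KO tumor 3. Between WT and KO glands, 8 of the 12 libraries moved it by that much or turned it when left out, to between -1.002 and 0.013. The lowest count of a member in any library was 38 reads. The spread of members between mice was 0.761 with TMM and 0.752 with DESeq2's size factors.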
